A study of Mus musculus with 6 samples.

Results

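Collagen genes were taken as every gene whose symbol was Col, a number, a and a second number, which gave 44 genes of the 28048 in the count tables. The RNA came from bone marrow-derived T-cell progenitors, sorted as DN1, DN2a or DN2b cells and re-cultured for 4 days on OP9-DL1 cells, a mouse bone marrow stromal line that carries the Notch ligand DL1. The progenitors came from wild-type (WT) mice or from ΔTE mice, which lack an enhancer that sets the timing of Bcl11b activation. Each of the 6 combinations of genotype and starting population gave 1 library, from bone marrow pooled over 6 to 8 mice aged 2 to 4 months. The 6 groups were thus WT DN1, WT DN2a, WT DN2b, ΔTE DN1, ΔTE DN2a and ΔTE DN2b, all on the same stroma and for the same time. In both genotypes each Bcl11b allele carried a YFP reporter, which was used to sort Bcl11b-negative DN2a and Bcl11b-positive DN2b cells, so the starts differed in Bcl11b by construction. Cells were scraped with the stroma and passed through a mesh to reduce OP9-DL1 cells. RNA was read by sci-RNA-seq3, a method that labels fixed cells or nuclei by combinatorial indexing and counts unique molecular identifiers (UMIs), 1 per captured RNA molecule.

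Collagens are triple helices wound from 3 chains, each the product of 1 Col gene. Fibrillar collagens (types I, II, III, V and XI) form the cables of connective tissue, type IV forms the sheet of basement membranes, type VI forms beaded filaments, type VIII forms short-chain networks, fibril-associated collagens bind to the surface of fibrils, and types XV and XVIII carry long interrupted helices at basement membranes. Fibroblasts, bone marrow stroma, cartilage and bone are among the known sources of collagens, not the only ones, and lymphoid progenitors are not among them.

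The starts of 4 genes that the results turn on are shown, 3 of chains with most of their UMIs in stromal cells and that of Col15a1, which had most of its UMIs in other cells. RefSeq windows of 300 bases (250 before and 50 after a transcription start, GRCm38.p6) were given for 35 of the 44 genes, and they are printed 5′ to 3′ on the gene's strand with CCAAT, or ATTGG on the other strand, in capitals. Col1a2 (chr6:4505368-4505667, plus strand), Col4a1 (chr8:11312777-11313076, minus strand), Col4a2 (chr8:11312555-11312854, plus strand) and Col15a1 (chr4:47207762-47208061, plus strand) read:
Col1a2: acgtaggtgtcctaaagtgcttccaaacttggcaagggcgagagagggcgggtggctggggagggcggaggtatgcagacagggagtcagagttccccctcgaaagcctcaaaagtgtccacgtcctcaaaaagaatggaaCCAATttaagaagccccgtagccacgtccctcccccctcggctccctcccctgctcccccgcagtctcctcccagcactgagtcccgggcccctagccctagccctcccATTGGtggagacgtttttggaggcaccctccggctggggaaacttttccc
Col4a1: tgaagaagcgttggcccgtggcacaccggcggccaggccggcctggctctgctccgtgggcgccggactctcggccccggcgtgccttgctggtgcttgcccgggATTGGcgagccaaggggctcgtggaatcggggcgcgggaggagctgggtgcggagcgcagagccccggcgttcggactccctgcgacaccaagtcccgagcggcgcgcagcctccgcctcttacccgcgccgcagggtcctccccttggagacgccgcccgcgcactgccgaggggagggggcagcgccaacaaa
Col4a2: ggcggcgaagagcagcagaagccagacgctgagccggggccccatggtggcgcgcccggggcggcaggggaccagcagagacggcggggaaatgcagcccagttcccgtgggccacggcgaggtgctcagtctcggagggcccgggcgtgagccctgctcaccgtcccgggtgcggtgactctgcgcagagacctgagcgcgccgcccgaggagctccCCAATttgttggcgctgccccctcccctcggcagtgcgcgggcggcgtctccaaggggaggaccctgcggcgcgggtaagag
Col15a1: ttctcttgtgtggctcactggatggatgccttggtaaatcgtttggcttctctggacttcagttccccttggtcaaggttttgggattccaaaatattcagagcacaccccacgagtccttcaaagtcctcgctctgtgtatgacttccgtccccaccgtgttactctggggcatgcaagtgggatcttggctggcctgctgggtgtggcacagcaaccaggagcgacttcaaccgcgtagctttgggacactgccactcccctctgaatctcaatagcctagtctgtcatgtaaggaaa

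Col4a1 and Col4a2 lie head to head, and their windows shared 78 bases. Their starts were 21 bases apart. CCAAT, on either strand, was in 13 of 38 collagen windows (34.2%) and in 37.4% of all 32851 windows. It was in 8 of 16 windows of the stromal set defined below and in 0 of 4 windows of the other named chains. TATAAA, on either strand, was in 5 of 38 collagen windows (13.2%) and in 13.6% of all windows. The letters are a description of these windows and say nothing of a factor that binds them.

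The 6 libraries held 8007395 to 14555100 UMIs in all barcodes. A filter on depth and quality (200 or more genes, no more than 2000 UMIs, and a mitochondrial share of no more than 30%) left 60671 cells and 31687938 UMIs on the 13599 genes seen in at least 15 kept cells. No kept barcode was shared between libraries. The 18 wells of the reverse transcription, 3 for each library, divide 1 culture and are not replicates. Bcl11b, the gene whose enhancer was deleted, was lower in the ΔTE than in the WT library at each start, at 90.1 against 238, 269 against 574 and 545 against 881 CPM (UMIs scaled to 1000000 per sum) for DN1, DN2a and DN2b in non-stromal cells. The deleted part is not transcribed into Bcl11b RNA, so this is no direct check of the labels.

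Stromal cells were those with at least 5 UMIs over the genes Sparc, Fn1, Fbn1, Bgn and Gpc6, none of them a collagen, and all remaining kept cells are called other cells. There were 1667 stromal and 59004 other cells. The stromal cells were 121 of 10925 kept cells in WT DN1, 929 of 19489 in WT DN2a, 95 of 4968 in WT DN2b, 59 of 10294 in ΔTE DN1, 433 of 11594 in ΔTE DN2a and 30 of 3401 in ΔTE DN2b. They were deeper than the other cells, with a median of 726 against 429 UMIs. The limit on mitochondrial UMIs removed 11.3% of gated barcodes in WT DN2a, 61.7% in ΔTE DN2a and 86.4% to 95.6% in the other 4 libraries, against 2.11% to 52.9% of barcodes below the gate. The cells carried the RNA of stroma: of 15 stromal markers that are neither gate genes nor collagens, 14 were higher in stromal cells and Thy1, also a T-cell gene, was lower. Of all genes tested 27.7% were higher in stromal cells and 31.7% lower, by the test described below. Cxcl12, a chemokine of bone marrow stroma, was at 2881 CPM in stromal and 77.7 CPM in other cells, and Igfbp4, a secreted binder of growth factors, at 1009 and 376 CPM. Of the adipocyte list 6 of 6 tested genes were higher, among them Pparg, Lpl and Fabp4, and of the bone and cartilage list 4 of 4 (Runx2, Sox9, Comp and Alpl), with Acan, Bglap and Ibsp at 0 UMIs. Of 6 endothelial genes 1 was tested, Pecam1, and it was lower, but it had 14651 UMIs in other cells. The rest had too few UMIs to be tested. Emcn had 0 UMIs in stromal cells, Cdh5, Kdr and Tek had 1 each and Vwf had 2. All 6 pan-haematopoietic genes were lower in stromal cells but present, at a summed 306 to 598 CPM per library against 2208 to 2500 CPM in other cells. Ptprc (CD45) was at 121 against 658 CPM. The part of these haematopoietic UMIs in the stromal values was not tested, and the labels do not say whether a stromal cell came from the OP9-DL1 layer.

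Collagen RNA was concentrated in the stromal cells. All 44 chains had a UMI in some kept cell, but 28 had one in at least 15 cells and 24 passed the filter on low counts of the test. Of 33069 collagen UMIs, 19635 (59.4%) were in stromal cells, which held 4.34% of all UMIs. Summed over all chains, collagen took 14278 CPM in stromal cells (exact Poisson 95% interval 14079 to 14479) and 443 CPM in other cells (436 to 451). These intervals and those that follow cover counting error only. In stromal cells the level was 11991 CPM in WT DN1, 14838 in WT DN2a, 13494 in WT DN2b, 9879 in ΔTE DN1, 14683 in ΔTE DN2a and 12542 in ΔTE DN2b. In other cells it was 246, 791, 296, 244, 476 and 229.7 CPM in the same order, so that every stromal sum lay far above every other sum.

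UMI sums of the 2 classes were compared across the 6 libraries with edgeR's quasi-likelihood test, the library as a block, and Benjamini-Hochberg adjustment over all 11222 genes tested. Of the 24 tested chains 22 were higher in stromal cells and 1 was lower, where 27.7% of all genes tested were higher and 31.7% were lower. The filter on low counts works on CPM, so a few UMIs in the small stromal sums could bring a chain into the test. The count of 22 includes Col27a1 and Col28a1, with 7 and 8 UMIs in stromal cells. The median log2 fold change of the 24 chains was 5.11, against -0.15 over all genes tested. For 18 of the chains with at least 50 UMIs the log2 fold change lay between 3.88 (Col4a5) and 5.61 (Col2a1), with adjusted p of at most 4.9e-11. These 18, all over 8-fold, are called the stromal set. The set was drawn from these data and is used below to follow one kind of RNA, not as support for its own difference.

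**Figure D1:**
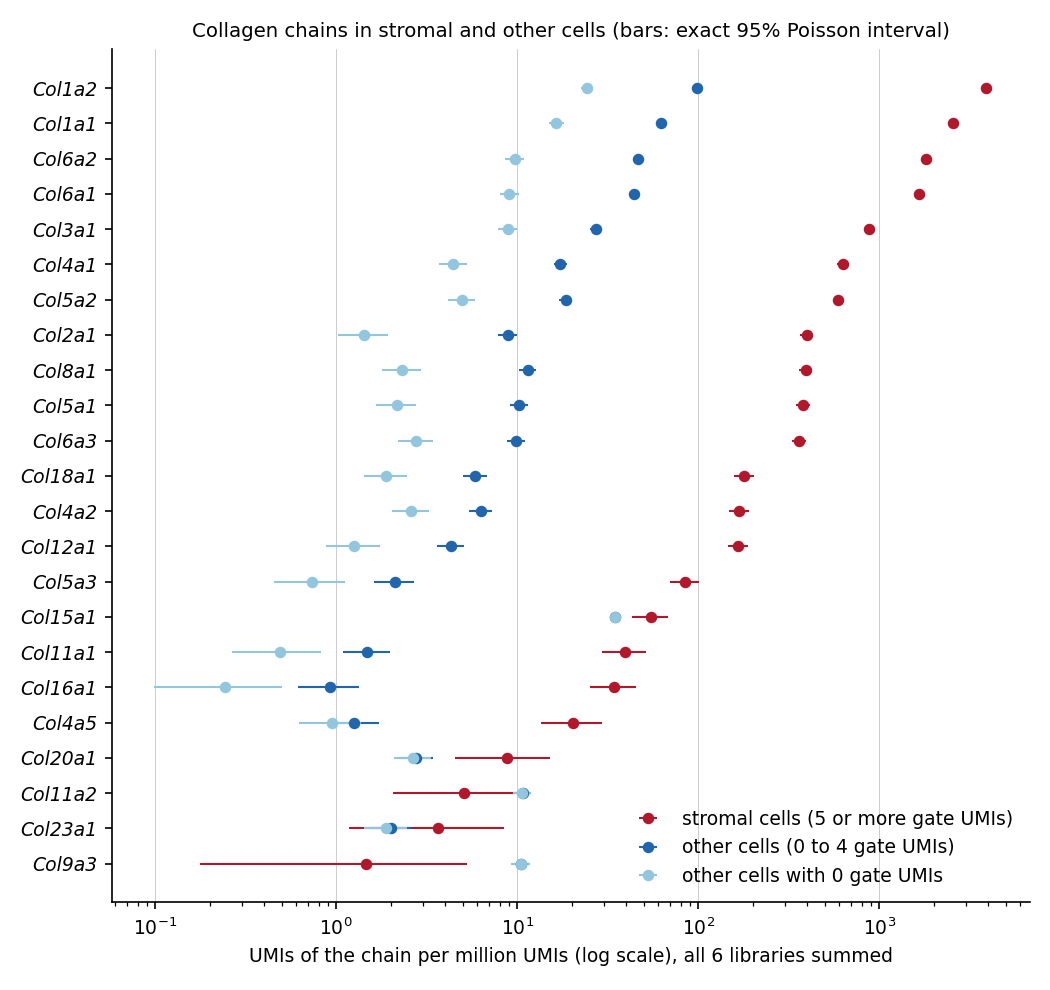
Level of each of the 23 chains with at least 50 UMIs, in CPM on a log axis and summed over the 6 libraries, in stromal cells (red), other cells (dark blue) and other cells with 0 gate UMIs (light blue), with exact 95% Poisson intervals. For the 18 chains of the stromal set the red point lies over 8-fold to the right of the dark blue point, while for Col15a1, Col20a1, Col23a1, Col11a2 and Col9a3 the points lie close together or in the opposite order.

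Type I collagen, the main protein of bone and tendon, led the list. Col1a2 was at 2878, 3385 and 4166 CPM in the lowest, median and highest stromal library and at 30.1, 62.3 and 193 CPM in other cells (log2 fold change 5.52, adjusted p = 8.4e-164 by edgeR). Col1a1 was at 1611, 2353 and 2637 CPM in stromal and 26.5, 39.5 and 121 CPM in other cells (log2 fold change 5.51). For both genes the 2 classes did not overlap in any library. Over all stromal cells Col1a1 had 0.657 UMIs for each Col1a2 UMI (0.629 to 0.685), although the mature protein holds more of the Col1a1 chain. Divided by the length of all merged exons (GENCODE M21), 6.56 kb for Col1a1 and 12.4 kb for Col1a2, the levels were 388 and 312 CPM per kb. Since 1 UMI stands for 1 captured RNA molecule, this order rests on the divisor and does not rank the RNAs.

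The remaining fibrillar chains followed at lower levels. Col3a1, which forms thin fibrils with type I, was at 442, 758 and 918 CPM in the stromal libraries and at 11.8, 16.5 and 50.6 CPM in other cells. The type V chains, which start and limit fibrils, were at a median of 514 (Col5a2), 369.9 (Col5a1) and 88.8 CPM (Col5a3) in stromal libraries. Col2a1, the main chain of cartilage fibrils, was at 344, 361 and 577 CPM in stromal libraries against 3.40, 5.85 and 17.1 CPM in other cells, and it had the highest fold change of any tested chain (log2 5.61). Its cartilage partner Col11a1 was at a median of 43.0 CPM, with 54 UMIs in all stromal cells. The remaining cartilage chains were at or near 0 in the stromal cells, with 0 UMIs of Col9a1, 1 of Col9a2, 2 of Col9a3, 2 of Col10a1 and 7 of Col11a2. The cartilage proteoglycan gene Acan had no UMI there, and Sox9, a cartilage transcription factor, was at 204 CPM. In the fibrillar class 9 of the 10 tested chains were higher and 0 lower.

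Type VI collagen, a filament that links cells to fibrils, was next in UMIs. Col6a2 was at 1009, 1773 and 2150 CPM and Col6a1 at 795, 1398 and 2030 CPM in the stromal libraries, against at most 89.8 and 87.4 CPM in other cells. Col6a3, the longest chain of the type, was lower at 236, 324 and 574 CPM. With Col1a1 and Col1a2, the Col6a1 and Col6a2 chains made up 69.1% of collagen UMIs in stromal cells. Divided by exon length Col6a1 was at 376 CPM per kb, with the same limit as for type I. The other 3 type VI genes, Col6a4, Col6a5 and Col6a6, had 0 to 1 UMI in stromal cells.

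Basement membrane chains were carried by Col4a1, at 471, 583 and 670 CPM in the stromal libraries against 2.95, 12.8 and 32.5 CPM in other cells. Its head-to-head partner Col4a2, whose start is shown above, was at 88.3, 163 and 258 CPM. The pair shares a start region but not a level, with 3.73 Col4a1 UMIs for each Col4a2 UMI (3.22 to 4.33). Col4a5, a chain of kidney basement membranes, was at 20.4 CPM over all stromal cells with 28 UMIs. The other 3 type IV genes had 1 or 2 UMIs in stromal cells. Col8a1, of the short-chain network class, was at 265, 367 and 480 CPM in stromal libraries against 4.13, 7.99 and 21.4 CPM in other cells.

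Among chains that sit on fibrils or membranes, Col12a1 was at 64.4, 154 and 208 CPM in the stromal libraries and Col16a1 at 0, 28.1 and 51.5 CPM. Col18a1, whose end is released as endostatin, was at 64.4, 130 and 199 CPM, against at most 8.93 CPM in other cells. Slc19a1 overlaps Col18a1 on the opposite strand in GENCODE M21, and whether strand was used in counting is not given in the sources used here. Col27a1 and Col28a1, with 30 and 22 UMIs in all, also passed the test, at log2 fold changes of 2.86 and 3.44. All 4 transmembrane collagen genes had too few UMIs to be tested.

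In single stromal cells several chains of the set were often seen together. Of the 1667 stromal cells 1662 held a UMI of the 18 chains and 1143 (68.6%) held at least 5 different ones, with a median of 5 chains. Of the other cells 460 (0.78%) held at least 5. These counts were not thinned, and the set was chosen in these same cells. Whether the chains went together beyond their levels was not tested. After thinning each cell to 300 UMIs, Col1a2 was seen in 66.3% of 1605 stromal cells (63.9% to 68.6%) and in 1.18% of 6867 cells with at least 2 T-lineage UMIs (0.938% to 1.46%). Thinning left out 62 stromal cells and 781 of the T-lineage cells. Without thinning the shares were 88.8% and 1.88%, at median depths of 726 and 519.5 UMIs. T-lineage cells are not a known source of type I collagen, and the source of the UMIs in them was not tested.

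**Figure D2:**
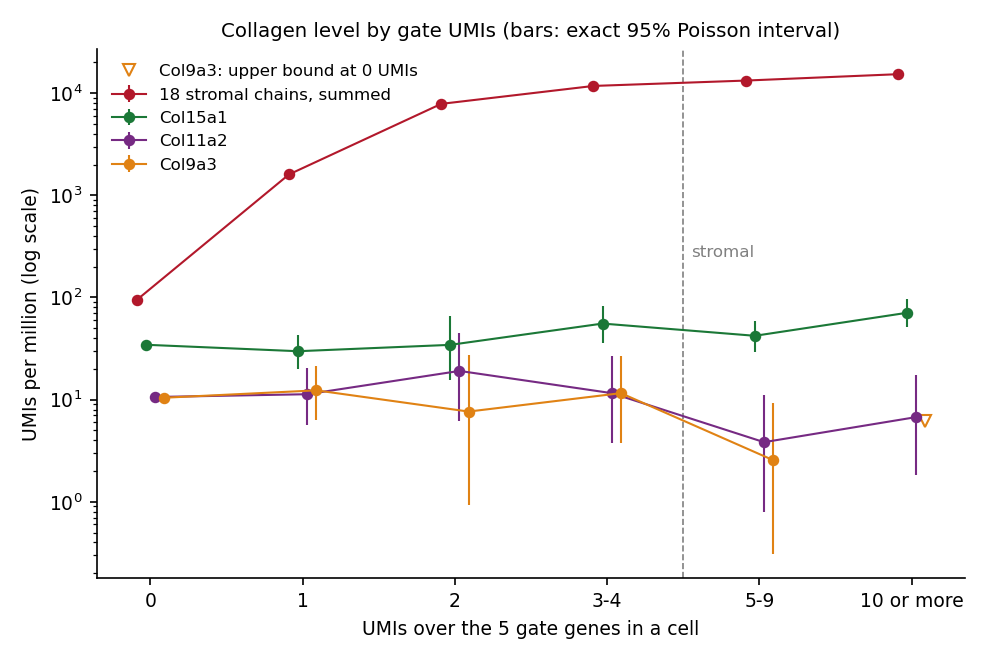
Level, in CPM on a log axis with exact 95% Poisson intervals, of the 18 chains of the stromal set summed (red), Col15a1 (green), Col11a2 (purple) and Col9a3 (orange) in cells grouped by their UMIs over the 5 gate genes. The stromal set rises from 94.4 to 15353 CPM, with 7863 CPM already at 2 gate UMIs, while Col15a1 stays between 29.8 and 70.9 CPM.

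The level of the stromal set rose with the number of gate UMIs and did not jump at the threshold. It was 94.4 CPM in the 55963 cells with 0 gate UMIs, 1601 CPM in the 1693 cells with 1, 7863 CPM in the 503 cells with 2, and 11779 CPM in the 845 cells with 3 or 4. Cells just outside the gate, with 4 UMIs, were at 12508 CPM, and cells just inside, with 5, were at 12178 CPM. The 3041 other cells with 1 to 4 gate UMIs thus held most of the stromal set in other cells. With them left out, summed collagen in other cells was 124, 182, 151, 141, 187 and 171 CPM in the 6 libraries. With a gate of at least 3 UMIs the stromal cells numbered 2512, and 22 chains were still higher.

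In cells without any gate UMI the stromal set was at a low level. Col1a2 was at 16.4, 23.6 and 30.3 CPM in the lowest, median and highest library. For the 18 chains the level was 0.36% to 4.63% of that in stromal cells, with a median of 0.737%. Few of these cells held several chains: 174 of 55963 (0.311%) had at least 2, and 15 had at least 5. The proportions were partly those of the stromal cells. Col1a1 had 0.678 UMIs for each Col1a2 UMI in cells without gate UMIs (0.602 to 0.763) and Col6a1 had 0.935 for each Col6a2 UMI (0.786 to 1.11), against 0.657 and 0.912 in stromal cells. Other pairs differed beyond counting error: Col4a1 had 1.72 UMIs for each Col4a2 UMI (1.28 to 2.32) against 3.73, and Col3a1 had 0.537 for each Col1a1 UMI (0.459 to 0.627) against 0.343 (0.321 to 0.367).

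**Figure D3:**
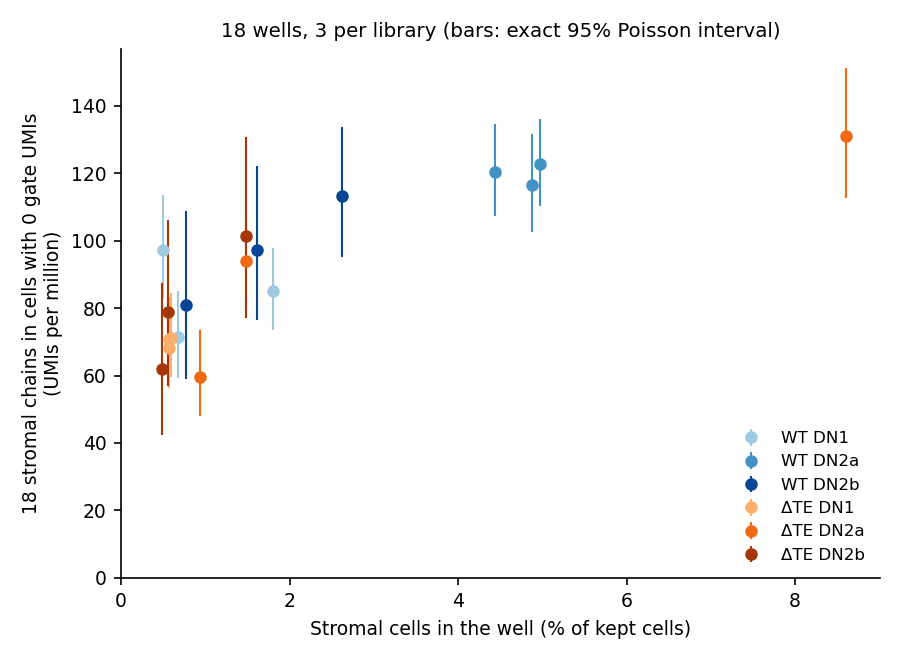
Level of the stromal set in cells with 0 gate UMIs (vertical axis, CPM with exact 95% Poisson intervals) against the share of stromal cells (horizontal axis, % of kept cells) in the 18 wells, coloured by library. The ΔTE DN2a well with 8.60% stromal cells is the highest, at 131 CPM, and the 3 ΔTE DN1 wells, with 0.565% to 0.589% stromal cells, are at 68.3 to 71.2 CPM.

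That level moved with the share of stromal cells in a well. Over the 18 wells Pearson's r was 0.845 and Spearman's rho 0.798, and r was 0.819 without the 2 wells farthest from the median share. The points are wells of 6 libraries, share a culture within a library and are given as a description. Within ΔTE DN2a the 3 wells had 0.933%, 1.48% and 8.60% stromal cells and 59.7, 93.9 and 131 CPM. Within WT DN1 the order did not hold, since the well with 0.502% stromal cells was at 97.1 CPM and the one with 1.80% at 85.0 CPM. The part of RNA from stromal cells in these values was not tested.

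Col15a1 differed from the stromal set in where its UMIs lay. It encodes a chain of type XV collagen, a basement membrane proteoglycan, and its start above holds no CCAAT. Gm12426 overlaps it on the opposite strand in GENCODE M21, and whether reads of that gene were counted with Col15a1 was not tested. Of its 1124 UMIs 1049 were in other cells, 987 of them in cells without a gate UMI. It was at 54.5 CPM in stromal cells (42.9 to 68.4) and at 34.6 CPM in other cells (32.5 to 36.8). The log2 fold change was 0.63 (adjusted p = 0.033 by edgeR), in 4 of 6 libraries, and the call was lost with 3 of the 6 libraries left out in turn. Without the well richest in stromal cells of each library the value was -0.03 (adjusted p = 0.968). After thinning to 300 UMIs it was seen in 1.43% of stromal cells (0.911% to 2.14%), 1.09% of other cells (1.00% to 1.19%) and 1.38% of T-lineage cells (1.12% to 1.69%), and without thinning in 4.20%, 1.71% and 2.69%.

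In other cells Col15a1 differed between the libraries. It was at 10.2 CPM in WT DN1 (7.79 to 13.1), 33.0 CPM in WT DN2a (29.2 to 37.1) and 29.1 CPM in WT DN2b (23.0 to 36.4). In the ΔTE libraries it was at 31.0 CPM for DN1 (26.6 to 35.8), 56.3 CPM for DN2a (50.5 to 62.7) and 72.0 CPM for DN2b (59.8 to 86.0). Within each genotype DN1 was thus the lowest, and at each start ΔTE was higher than WT. The ΔTE level stood above the WT level by a log2 ratio of 1.60 for DN1 (1.17 to 2.05), 0.77 for DN2a (0.54 to 1.01) and 1.31 for DN2b (0.88 to 1.74), with intervals for counting error only. At DN1 the WT wells were at 7.07 to 13.5 and the ΔTE wells at 29.8 to 33.3 CPM, at DN2a they were at 31.7 to 35.0 and 44.9 to 64.0 CPM, and at DN2b at 23.2 to 31.3 and 55.1 to 84.2 CPM. The wells of the 2 genotypes did not overlap at any start, but wells of 1 culture are no replicates. Over the 3 starts, with the start as a term in 1 edgeR fit of the 6 sums of other cells, Col15a1 was higher in ΔTE (log2 1.18, adjusted p = 2.6e-12 over 11777 genes), in 3 of 3 starts. Of all genes tested 3.01% were higher and 2.96% lower in that fit, and Bcl11b was lower (log2 -0.99, adjusted p = 0.010). The Col15a1 ratio lay between 1.06 and 1.46 with each start left out in turn and was 1.18 in cells with 0 gate UMIs. The fit leaves 2 residual degrees of freedom and was chosen after seeing the data. Nothing says that the 3 libraries of a genotype came from separate pools of mice, so its p-values measure how alike the starts were, and genotype cannot be told apart from differences between pools or cultures.

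**Figure D4:**
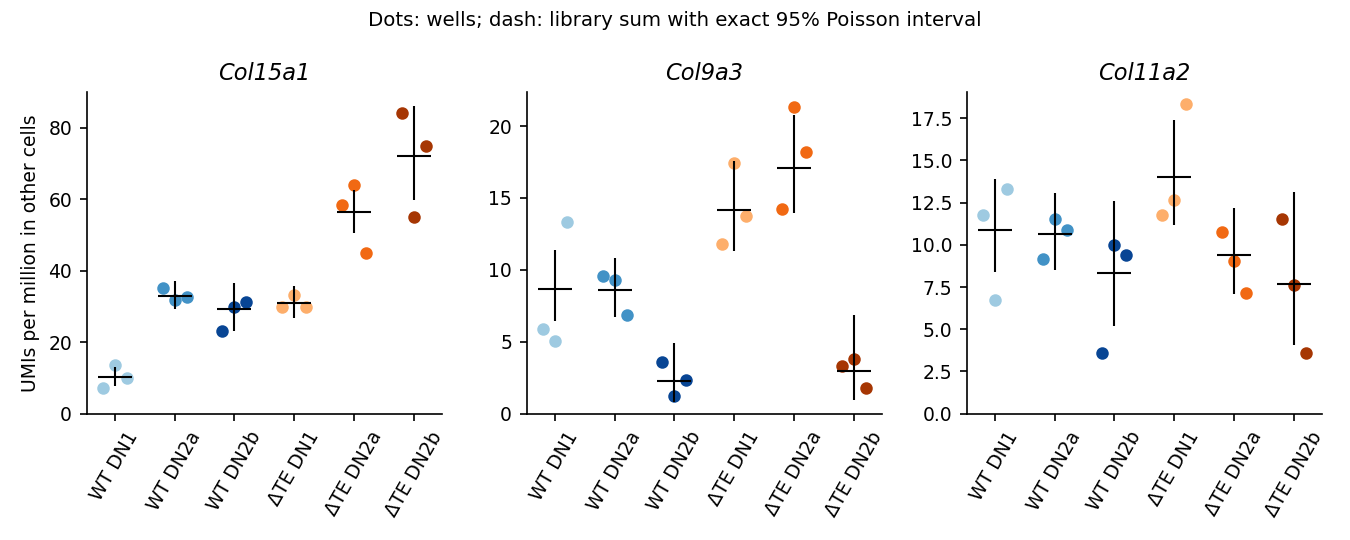
Col15a1, Col9a3 and Col11a2 in other cells, in CPM, by library: coloured dots are the 3 wells and the black dash is the library with its exact 95% Poisson interval. Col15a1 is higher in each ΔTE library than in the WT library of the same start (31.0 against 10.2, 56.3 against 33.0 and 72.0 against 29.1 CPM), and Col9a3 is lowest in both DN2b libraries (2.27 and 2.95 CPM).

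Col15a1 was seen in each of the classes of other cells given here. Other cells were put in overlapping classes by at least 2 UMIs over a marker list. A few genes led some lists in other cells: Gzma (27696 UMIs) and Nkg7 (10217) the ILC or NK list, and Cpa3 (17132) the mast, basophil or megakaryocyte list. Thy1 (12948) and Igfbp4 (11385) led the stromal list. The classes are thus named by their lists and are not shown to be cell types. Since the classes took different shares of each library, levels are given within libraries. In WT DN2a Col15a1 was at 37.3 CPM in the ILC or NK class (28.2 to 48.3) and 36.8 CPM in the T-lineage class (28.0 to 47.3). It was at 31.2 CPM in the mast, basophil or megakaryocyte class (19.3 to 47.8) and 29.9 CPM in the progenitor class (14.9 to 53.5). In the class of the stromal list, below the gate, it was at 41.4 CPM (31.4 to 53.7). These intervals overlapped throughout. In ΔTE DN2a the same classes were at 75.9 CPM (63.7 to 89.7), 64.5 (48.7 to 83.8), 50.4 (36.1 to 68.3), 47.6 (26.1 to 79.9) and 70.9 CPM (55.3 to 89.4), again with overlap. In ΔTE DN1 the ILC or NK class, at 48.6 CPM (36.7 to 63.1), lay above the progenitor class, at 13.0 CPM (5.63 to 25.7). The 841 myeloid cells held 3 Col15a1 UMIs. The genotype difference was also seen within the ILC or NK and T-lineage classes. The T-lineage list includes Bcl11b, which had the most UMIs of its genes in other cells (11541). Bcl11b was lower in each ΔTE library, so genotype bears on which cells had UMIs over that list. How far this shaped the values of cells sorted by that list was not tested. In the ILC or NK class Col15a1 was at 12.3, 37.3 and 25.1 CPM in the WT libraries of DN1, DN2a and DN2b, and at 48.6, 75.9 and 88.0 CPM in the ΔTE libraries. In the T-lineage class the WT values were 18.4, 36.8 and 39.2 CPM and the ΔTE values 48.3, 64.5 and 79.9 CPM. In other cells with no UMI over either list ΔTE stood above WT by a log2 ratio of 1.44 for DN1, 0.70 for DN2a and 1.58 for DN2b.

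Col9a3, a chain of cartilage type IX collagen, was the only tested chain called lower in stromal cells. It had 2 UMIs in stromal cells, both in WT DN2a, and 318 in other cells (log2 fold change -2.72, adjusted p = 0.0020 by edgeR). In other cells it was at 8.67, 8.57 and 2.27 CPM in WT DN1, DN2a and DN2b and at 14.2, 17.1 and 2.95 CPM in ΔTE. Both DN2b libraries were thus low, by a log2 ratio to DN2a of -1.92 in WT (-3.41 to -0.72) and -2.53 in ΔTE (-4.19 to -1.26). At DN2a the ΔTE wells, 14.2 to 21.3 CPM, lay above the WT wells, 6.89 to 9.58 CPM, while at DN1 they overlapped. Over the 3 starts it was higher in ΔTE (log2 0.91, adjusted p = 0.0026 by edgeR with the start as a term), and that call was lost without the DN2a start (log2 0.67, adjusted p = 0.465) and with DESeq2's Wald test (adjusted p = 0.718). Its partner chains Col9a1 and Col9a2 had 1 and 5 UMIs in all cells. Tcfl5, which overlaps the end of Col9a3 on the opposite strand in GENCODE M21, had 4 UMIs, and Ogfr, which ends just before Col9a3 on the same strand, had 90 in stromal and 1709 in other cells. The lower call in stromal cells was lost without the ΔTE DN2a library (adjusted p = 0.0753) and with DESeq2's Wald test (adjusted p = 0.152).

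Col11a2, of the cartilage fibril class, had 325 UMIs in other cells and 7 in stromal cells. It was at 10.9, 10.6 and 8.33 CPM in WT DN1, DN2a and DN2b and at 14.0, 9.39 and 7.68 CPM in ΔTE, with overlapping intervals at each start. Its difference from stromal cells, at 5.09 CPM (2.05 to 10.5), did not pass the test (log2 fold change -0.89, adjusted p = 0.176). Rxrb ends just before Col11a2 on the same strand and was at 37.7 CPM in other and 27.6 CPM in stromal cells. Col20a1 had 84 UMIs in other and 12 in stromal cells, the latter in both DN2a libraries, and passed the test (log2 fold change 1.62, adjusted p = 0.017). Arfgap1 ends just before it on the same strand. Col23a1, a transmembrane collagen, had 61 UMIs in other and 5 in stromal cells and did not pass the filter on low counts. For Col11a2, Col9a3 and Col20a1, reads of a neighbouring gene could have been counted with the chain.

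The 21 chains with fewer than 50 UMIs held 219 UMIs together. Of them 7 had no UMI in stromal cells (Col6a5, Col8a2, Col9a1, Col13a1, Col17a1, Col22a1 and Col25a1), where a count of 0 allows up to 3 UMIs or 2.18 CPM, and at most 11 UMIs in other cells. Apart from Col27a1 and Col28a1, both called higher in stromal cells, none of the 21 passed the filter on low counts. That filter favours chains with UMIs in the small stromal sums. Col4a3 (31 UMIs in all) and Col4a4 (25), each with 2 in stromal cells, did not pass it, while Col28a1 (22) did.

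In stromal cells the collagen genes were compared between the genotypes at each start. The log2 difference of ΔTE from WT in summed collagen was -0.28 for DN1 (-0.44 to -0.13), -0.02 for DN2a (-0.06 to 0.03) and -0.11 for DN2b (-0.30 to 0.08). Of the chains with at least 50 UMIs in the 2 stromal sums, 0 of 10, 0 of 16 and 0 of 8 differed by more than 2-fold, where 2.94%, 3.6% and 8.99% of all genes of that depth did. With so few chains, counts of 0 do not set collagens apart from other genes at those shares. At DN1 the interval of 1 chain left out 0, Col1a1, which fell from 2309 CPM (WT) to 1611 CPM (ΔTE; log2 -0.52, -0.91 to -0.14). At DN2a, the best measured start, Col6a1 and Col6a2 were higher in ΔTE (log2 0.31, 0.17 to 0.44, and 0.28, 0.15 to 0.41). Col1a2, Col5a2 and Col6a3 were lower (log2 -0.16, -0.32 and -0.35). The median log2 difference over all genes in these stromal sums was -0.15, so Col1a2 was no lower than genes in general. For Col1a2 and Col5a2 the wells of the 2 genotypes did not overlap, and for Col6a1, Col6a2 and Col6a3 they did. No interval at DN2b left out 0. Over the 3 starts, with the start as a term in an edgeR fit of the stromal sums, 0 of 15 tested chains were called in either direction, and 0 had an unadjusted p under 0.05. Of 2445 genes tested 0% were called higher and 0.0818% lower. DESeq2's Wald test also called 0 chains. At 2 residual degrees of freedom and with few stromal cells in most libraries this does not show that the levels were alike.

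**Figure D5:**
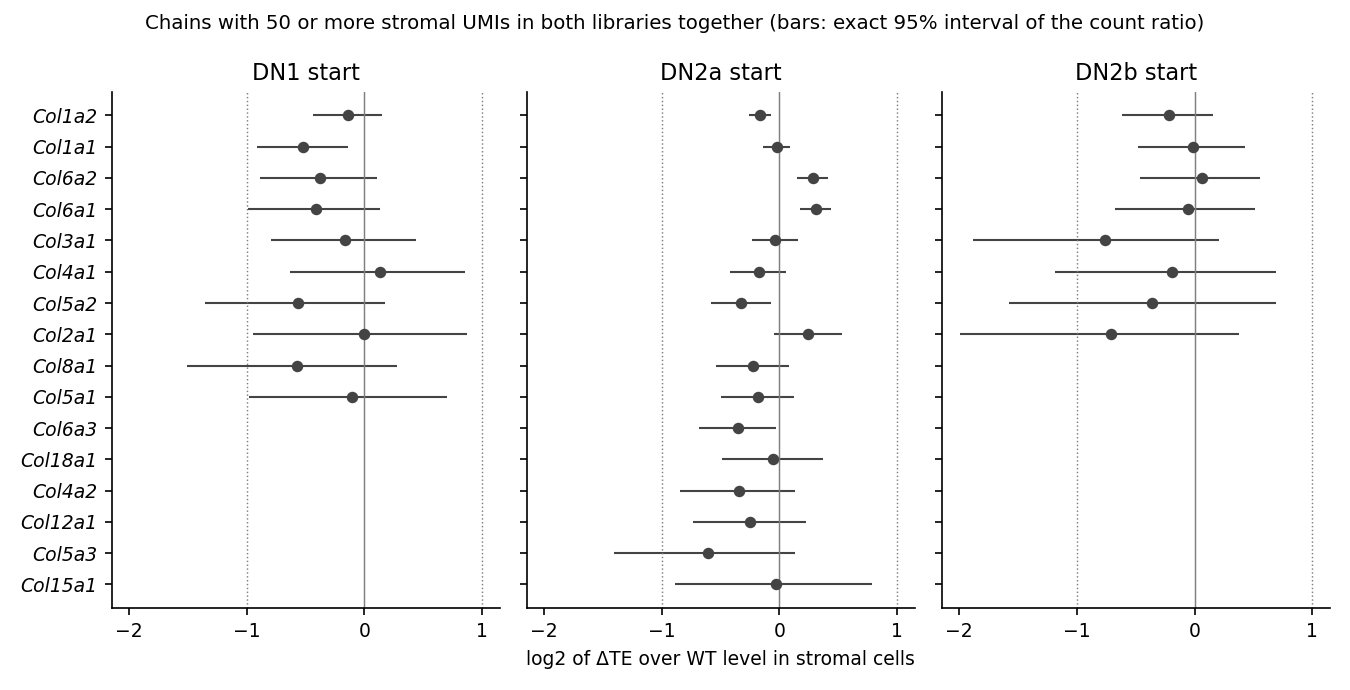
Log2 difference in stromal cells between the cultures of ΔTE and of WT progenitors, by starting population. Each chain with at least 50 UMIs in the 2 libraries together is shown. Bars are exact 95% intervals of the count ratio, and dotted lines mark 2-fold. No point lies past 2-fold; the widest intervals are at DN2b, where the ΔTE library had 30 stromal cells.

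These ratios depended on which stromal cells were kept. With no limit on mitochondrial UMIs, under which 5295 stromal cells were kept, the summed ratio at DN1 was 0.03 in place of -0.28, and the ratio at DN2a was -0.32. With scaling by TMM over the stromal sums the DN1 and DN2b ratios were -0.49 and -0.53. With 1 library per group neither ratio has a replicate check.

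In other cells the stromal set was lower in ΔTE at each start. At DN1 it was at 206 CPM for WT against 174 CPM for ΔTE (log2 -0.24, -0.36 to -0.12), where the stromal share was 1.11% and 0.573%. At DN2a it was at 726 CPM for WT against 382 CPM for ΔTE (log2 -0.93), where the stromal share was 4.77% and 3.73%, and at DN2b at 246 against 139.96 CPM (log2 -0.82), where it was 1.91% and 0.882%. At DN2a 4 of 17 chains with at least 50 UMIs were past 2-fold, all lower in ΔTE (Col1a2, Col5a1, Col6a3 and Col8a1), where 3.33% of all genes were. The ΔTE DN2a wells spread from 32.5 to 218 CPM for Col1a2 and held the WT range of 186 to 211 CPM, and 334 of its 433 stromal cells were in 1 well. At DN1 1 of 14 chains was past 2-fold (Col15a1, higher), where 0.658% of genes were, and at DN2b 2 of 6 (Col15a1 higher, Col1a2 lower), where 2.1% were. Over the 3 starts, in the edgeR fit with the start as a term, 6 of 22 tested chains were lower in ΔTE, against 2.96% of all genes, and all 6 were of the stromal set. They were Col1a2 (log2 -0.79, adjusted p = 7.2e-10), Col1a1 (-0.68), Col6a1 (-0.61), Col4a1 (-0.90), Col5a2 (-0.76) and Col3a1 (-0.49). None of the 6 was called among cells with 0 gate UMIs, where 0 of 17 tested chains were lower, 2 were higher (Col15a1 and Col9a3) and 5 had an unadjusted p under 0.05. Without the DN2a start 2 were lower, Col1a2 and Col4a1, and without the well with the most stromal cells of each library 1 was, Col4a1.

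The genes that make, fold and cut collagen were described beside the chains from lists chosen with results known. Of all genes tested 27.7% were higher in stromal cells and 31.7% lower, shares to set beside each list count that follows. The filter on low counts favours genes with UMIs in the small stromal sums, so the list counts lean to genes higher there. Mfap5, with 14 UMIs in stromal and 6 in other cells, was tested, while Mrc1, with 1 and 62, was not. Of 20 genes for synthesis and folding, 18 were tested, 16 were higher in stromal cells and 0 lower, with a median log2 fold change of 3.02. The most abundant were general to all cells: P4hb, a subunit of prolyl hydroxylase, was at 615 against 343 CPM (log2 0.70, adjusted p = 0.00020) and Ppib, a proline isomerase, at 504 against 308 CPM (log2 0.58), while Colgalt1 (135.98 against 136 CPM) and Mia3 (158 against 132 CPM) did not pass the test.

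Of 13 processing and cross-linking genes 10 were tested, 9 were higher and 1 lower. Lox, the oxidase that cross-links fibrils, was at 1602 CPM in stromal and 38.5 CPM in other cells (log2 5.51), Pcolce, an enhancer of procollagen cleavage, at 901 and 22.6 CPM, and Bmp1, the protease that cuts the C-terminal end, at 196 and 5.44 CPM. Adamts3, a protease of the N-terminal end, went the other way, at 7.27 and 42.6 CPM (log2 -2.42). All 18 tested genes of the 22 fibril partners were higher, led by Ogn (1133 against 29.5 CPM), Thbs1 (589 against 21.9 CPM) and Prelp (534 against 12.6 CPM), with Emilin1 the least changed of the 4 most abundant (209 against 61.6 CPM, log2 1.61). Dcn, with 1 UMI in stromal and 23 in other cells, and Lum, with 0 and 4, were not tested.

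Receptors were called in both directions. Of 14 receptor genes 9 were tested, 6 were higher and 2 lower in stromal cells, where 27.7% of all genes were higher and 31.7% lower. Itga1, of a collagen-binding integrin, was at 247 against 13.5 CPM (log2 4.37), and its partner Itgb1 at 525 against 194 CPM (log2 1.31). Adgrg1, an adhesion receptor that binds type III collagen, was at 98.9 CPM in stromal and 484 CPM in other cells (log2 -2.22), and Lair1, an inhibitory collagen receptor of leukocytes, at 15.998 and 77.6 CPM (log2 -2.16). Both receptors were lower in stromal cells in 6 of 6 libraries. All 10 tested genes of the 13 collagenases and inhibitors were higher in stromal cells, among them Timp2 (1709 against 57.6 CPM), Mmp14 (1091 against 28.5 CPM), Mmp2 (486 against 14.2 CPM) and Timp3 (113 against 6.30 CPM).

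Of the 15 transcription factors known to act on matrix genes 12 were tested, 10 were higher and 1 lower. Those with the most UMIs were shared with the progenitors: Tcf4 was at 738 against 311 CPM (log2 1.09), Runx2 at 327 against 172 CPM (log2 1.01), Smad3 at 78.5 against 122 CPM (log2 -0.67, adjusted p = 0.0054) and Zeb1 at 277 against 342 CPM (log2 -0.35, adjusted p = 0.0904, not called).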

How the data were processed

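The authors deposited raw counts of UMIs for each gene and barcode, neither scaled nor filtered. The submitters' processing notes name the genome build mm9, and the aligner is not given in the sources used here. UMIs were summed per library, well and class of cell, and CPM were taken over genes with a UMI in at least 15 kept cells. No doublet caller was run, so that doublets were limited by the maximum of 2000 UMIs alone. Stromal and other cells were compared with edgeR 4.0.16 (R 4.3.3, TMM, filterByExpr, library as a block), with adjusted p under 0.05 called, after a test on simulated data. Nothing says that the 6 cultures were independent of each other, so that p-values measure the spread between these libraries. DESeq2 1.42.0 was an alternative. Genotypes were compared at each start without a test, since each group holds 1 library, and over the 3 starts with edgeR and DESeq2 and the start as a term, which was added after seeing the data. Intervals are exact 95% intervals, Poisson for levels, conditional binomial for ratios and Clopper-Pearson for shares (scipy 1.17.1), and PCR copies beyond UMI correction are not covered. Exon lengths and neighbouring genes came from GENCODE M21 and promoter windows from RefSeq, both on GRCm38, matched by identifier or symbol and not by coordinate. The chains, gate and lists were chosen with earlier results of these data known. Chains with at least 50 UMIs, the 4 genes of each pathway list with the most UMIs and the leading marker genes were named. Sox9, Acan, Emcn, Cdh5, Kdr, Tek, Vwf, Ptprc, Mfap5, Mrc1, Dcn, Lum and neighbouring genes were named after their values were seen. Alternatives changed the gate, the cell filters, the scaling, the test, the wells and the libraries used.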

Additional observations from a re-analysis of the deposited data

Results flagged for a closer look

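Barcodes that the filters left out held collagen RNA at levels below those of the kept stromal cells and above those of other cells. Of 23136 barcodes over 30% mitochondrial UMIs and within 2000 UMIs, 3628 passed the stromal gate, more than the 1667 stromal cells kept, with 9975 CPM of collagen (9875 to 10076). Of 448 barcodes over 2000 UMIs and within the mitochondrial limit, 171 passed the gate, at 10568 CPM (10305 to 10837). Of 1252 barcodes over both limits 1110 passed it, at 8833 CPM (8740 to 8928). Kept stromal cells were at 14278 CPM and other cells at 443 CPM. The 3628 barcodes entered only the values given with no mitochondrial limit, and those over both limits entered none. Whether they were damaged cells, doublets or clumps was not tested. The groups of samples were too small for a search for outlying libraries.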

How the results depend on the processing

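The number of chains higher in stromal cells lay between 18 and 22 under every alternative, and between 19 and 22 with each library left out in turn. Of the values of single chains 380 kept their direction and call. The number of lower chains was 0 with DESeq2's Wald test or without the well with the most stromal cells of each library, 2 with no mitochondrial limit, and 0 to 1 with each library left out. Col15a1 was at -0.028 (log2) without those wells, and its call was lost with no filter on low counts (0.51, adjusted p = 0.109 by edgeR), with DESeq2 (0.68) and without WT DN1, WT DN2a or WT DN2b (0.56, 0.56 and 0.61). Col9a3 lost its call without those wells (-1.51), with DESeq2 (-1.69) and without ΔTE DN2a (-1.95), Col20a1 lost it with a gate of 10 UMIs (1.69) and with DESeq2 (1.23), and Col11a2 gained one with no mitochondrial limit (-1.22). The Col15a1 difference between genotypes (log2) lay between 0.67 and 2.02 in 24 values, which are those of each alternative at each of the 3 starts. The choice of wells and the alternatives for that difference were added after seeing the data. The cause of these changes was not tested. Over the 3 starts, the number of chains in other cells that were lower in ΔTE was 6, and it was 2 with DESeq2, 10 without DN1, 2 without DN2a, 0 in cells with 0 gate UMIs and 1 without those wells. The number of higher chains was 2, and 1 with DESeq2 or without DN2a. Col5a2 turned to 0.15 (log2) in cells with 0 gate UMIs. No paired analysis was possible because no group holds more than 1 replicate number, and the genotypes were compared with the start as a term instead.

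The log2 difference of ΔTE from WT in stromal collagen moved at DN1 to -0.44 with a gate without Sparc, 0.035 with no mitochondrial limit, -0.49 with TMM scaling and -0.068 without the wells with the most stromal cells. At DN2a it moved to -0.32 with no mitochondrial limit, 0.11 with CPM without mitochondrial UMIs, 0.10 with TMM scaling and -0.30 without those wells. At DN2b it moved to -0.53 with TMM scaling and 0.12 without those wells. The number of chains past 2-fold was 1 at DN1 and 1 at DN2b with a gate without Sparc, 2 at DN1 and 1 at DN2a with a minimum of 20 UMIs, 1 at DN2a without those wells, and 1 at DN2b with a gate of 10 UMIs and 2 with TMM scaling.

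Summed collagen in stromal cells (CPM) moved with a gate of 3 UMIs to 14266 (WT DN2a) and 8667 (ΔTE DN1). With a gate of 10 UMIs it was 14209.8 (WT DN1), 15663 (WT DN2a), 14759.6 (WT DN2b), 12802 (ΔTE DN1) and 15734 (ΔTE DN2a). With a gate without Gpc6 it was 15121 (WT DN2a) and 10836 (ΔTE DN1), and with up to 2000 genes in place of 2000 UMIs 14478 (WT DN2a), 8604 (ΔTE DN1) and 14079.8 (ΔTE DN2a). With no mitochondrial limit it was 9426 (WT DN1), 14423 (WT DN2a), 11129 (WT DN2b), 11586 (ΔTE DN2a) and 10164 (ΔTE DN2b), and without the wells with the most stromal cells 10823 (WT DN1), 12119.6 (WT DN2b) and 11939.7 (ΔTE DN2a). With CPM without mitochondrial UMIs it was 16021, 17636, 18134, 13123, 18971 and 16798 in the WT libraries and then the ΔTE libraries, each from DN1 to DN2b.

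In other cells, in the same order of the 6 libraries, the sum was 183, 440.2, 200.3, 191, 296 and 186 CPM with a gate of 3 UMIs and 379, 1433, 509, 307, 886 and 323 CPM with a gate of 10. It was 309.7, 1028, 354, 276, 611 and 257 CPM with a gate without Sparc and 124, 182, 151, 141, 187 and 171 CPM in cells with 0 gate UMIs. With no mitochondrial limit it was 665, 876, 950.4, 678, 786 and 922 CPM, and without mitochondrial UMIs in the total 317, 919, 382, 314, 604 and 300.04 CPM. With a gate without Gpc6 it moved to 276 (WT DN1), 889 (WT DN2a), 258 (ΔTE DN1) and 512 CPM (ΔTE DN2a), with at least 300 genes per cell to 220.2 (WT DN1), 669 (WT DN2a), 254 (WT DN2b), 224 (ΔTE DN1) and 406 CPM (ΔTE DN2a), and without those wells to 187 (WT DN1), 250.2 (WT DN2b), 272 (ΔTE DN2a) and 189 CPM (ΔTE DN2b). Depth limits the DN2b comparison in stromal cells most, with 30 stromal cells in ΔTE.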

Other observations

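Other cells with a Col15a1 UMI could be compared with the rest for the RNA that they carried beside it. There were 1010 such cells, with a median of 528 UMIs against 428 in those without. For each gene with at least 20 UMIs in them, the count was set against the count expected from the levels of the same libraries. Over 5886 genes the median ratio was 0.996. The 4 highest ratios were those of Phf7 (2.42, 1.48 to 3.74), Rnf125 (2.40, 1.74 to 3.22), Mmp2 (2.37, 1.47 to 3.63) and Ccr9 (2.30, 1.59 to 3.23). Their expected counts were 8.25, 18.3, 8.85 and 14.3, all under the minimum of 20. Each thus entered only because its count was high in these cells, and its rank is no support for a difference. Ccr9 is a chemokine receptor of thymic progenitors, and Rnf125 is a ubiquitin ligase expressed in lymphoid cells. Lef1, a T-cell transcription factor, was at 2.02 (1.503 to 2.65), and Lef1 and Rnf125 were above expectation in 6 of 6 libraries. These are the extremes of many ratios, taken after their values were seen and without a test, with intervals for counting error only. Mmp2 is also a gene of the stromal cells, and the part of RNA from stromal cells in its ratio was not tested.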
